A study of Mus musculus with 20 samples.

Results

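The enzymes that make serine and proline in mouse cells, with the folate enzymes that use serine and the enzyme that breaks proline down, were followed across 20 libraries of mouse intestinal RNA. The set held 9 genes chosen by name, Phgdh, Psat1, Psph, Shmt1, Shmt2, Mthfd2, Pycr1, Aldh18a1 and Prodh, of 24795 genes in the deposited table. All 9 passed the filter on low values, which asked for at least 1 RPKM (reads per kilobase of transcript, scaled to library depth) in at least 6 libraries, as did 12433 genes in all. Pycr1 was the lowest of them and reached 1 RPKM in 13 libraries, 6 of them outside the control group, so that it passed without the group in which it was highest.

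Serine is made from the glycolytic intermediate 3-phosphoglycerate in a chain of 3 reactions. Phgdh oxidises 3-phosphoglycerate, Psat1 moves an amino group onto the product from glutamate and so releases alpha-ketoglutarate, and Psph removes the phosphate. Shmt1 in the cytosol and Shmt2 in mitochondria split serine into glycine and a folate-bound carbon unit, which mitochondrial Mthfd2 oxidises on the way to formate and purine synthesis. Proline is built from glutamate: Aldh18a1 makes the semialdehyde intermediate, Pycr1 reduces the cyclised product to proline in mitochondria, and Prodh, the first enzyme of proline breakdown, runs the last step in the opposite direction. Several of these genes are known targets of the amino acid stress factor Atf4 or of Myc, which is a target of Wnt signalling in the intestine.

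The libraries came from 7 Apc Min samples given a control treatment, 6 Apc Min samples given DM-aKG, which the series title presents as a form of alpha-ketoglutarate, and 7 samples from WT mice that were not treated. The Min allele truncates the tumour suppressor Apc, and mice that carry it develop intestinal adenomas, so the control and DM-aKG groups shared that allele and the WT group lacked both the allele and any treatment. The labels give no age, dose, duration or site along the gut, and nothing in them ties a sample to an animal or culture. The p-values thus describe how far these samples scatter, which may be technical. The titles name tissue, whereas the other fields name organoids, an in vitro setting, organoid medium and a low-glutamine medium. The epithelial marker Epcam was at 506.5 to 1090 RPKM, but genes of cells that epithelial organoids lack were present in all 20 libraries: the smooth muscle myosin Myh11 at 36.8 to 212.6, the leukocyte gene Ptprc at 1.012 to 9.93 and the collagen gene Col1a1 at 3.556 to 78.8. In such bulk samples fewer cells of a type and less RNA per cell cannot be told apart.

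All 9 genes lie on the minus strand of the mm10 genome and are annotated as protein coding in GENCODE M21. Phgdh spans chr3:98313170-98339990, Psat1 chr19:15904678-15947337 and Psph chr5:129765558-129787449. Shmt1 spans chr11:60788104-60811718, Shmt2 chr10:127517123-127522444 and Mthfd2 chr6:83305691-83325908. Pycr1 spans chr11:120635712-120643769, Aldh18a1 chr19:40550257-40588463 and Prodh chr16:18060357-18090203.

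The 250 bases before the start of transcription are shown for Pycr1 and Phgdh, the members with the largest differences, and for Aldh18a1, the enzyme next to Pycr1 in the pathway, which did not pass the test in any comparison. The sequences are from RefSeq (GRCm38.p6, the assembly of mm10), minus strand, 5′ to 3′. Capitals mark TGATGCAAT in Pycr1, 103 to 95 bases before the start, a match to the Atf4 composite element TGATGNAAT, and CACGTG in Aldh18a1, 59 to 54 bases before the start, the E-box that Myc and other factors can bind.
Pycr1 chr11:120643749-120643998: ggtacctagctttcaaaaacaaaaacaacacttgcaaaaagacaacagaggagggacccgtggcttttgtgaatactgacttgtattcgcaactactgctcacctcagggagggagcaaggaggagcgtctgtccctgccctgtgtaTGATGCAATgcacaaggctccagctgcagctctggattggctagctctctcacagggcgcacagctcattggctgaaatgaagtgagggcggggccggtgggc
Phgdh chr3:98339970-98340219: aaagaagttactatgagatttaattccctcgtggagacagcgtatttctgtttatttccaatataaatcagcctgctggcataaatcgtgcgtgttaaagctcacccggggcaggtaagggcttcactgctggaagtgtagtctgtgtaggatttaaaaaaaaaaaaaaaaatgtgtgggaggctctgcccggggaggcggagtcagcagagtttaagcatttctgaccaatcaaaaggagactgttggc
Aldh18a1 chr19:40588464-40588713: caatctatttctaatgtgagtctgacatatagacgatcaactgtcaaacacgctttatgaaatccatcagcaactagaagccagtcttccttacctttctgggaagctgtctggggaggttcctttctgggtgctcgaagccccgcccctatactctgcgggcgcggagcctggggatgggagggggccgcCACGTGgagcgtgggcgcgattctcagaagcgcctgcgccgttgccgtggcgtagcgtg
All 9 members matched the RefSeq table, with 10 windows, since Psat1 has a pair of start sites. On both strands, TGATGNAAT was found in the Pycr1 window alone, as was TGATGNAA, which is contained in it. CACGTG was found in the Aldh18a1 window alone, and CACGCG, a variant E-box, in those of Psat1 and Shmt1. Over 32851 mouse promoter windows of the same length the shares holding these motifs were 0.816% for TGATGNAAT, 3.45% for TGATGNAA, 6.02% for CACGTG and 7.62% for CACGCG. A match is a description of the letters and not of binding.

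Depth, estimated from the steps between low values within a range set beforehand, was 21.2 to 29.45 M reads per library. On that estimate 1 RPKM stood for 21.2 to 29.45 reads per kilobase. Pycr1 at 0.42 RPKM was the lowest member value. The comparisons used limma on log2(RPKM + 1), a scale that understates changes of low genes, with Benjamini-Hochberg adjustment over all 12433 genes, and a gene was called at a 2-sided adjusted p below 0.05. The bulk of genes was shifted between groups: the median difference was -0.14 for DM-aKG against control, 0.20 for control against WT and 0.05 for DM-aKG against WT. With DM-aKG against control 82.4% of the calls over all genes were lower, but 51.4% after quantile normalization and 57.4% after median-of-ratios scaling. For control against WT the share lower was 26.6%, against 50.8% and 50.7% with those scalings, and for DM-aKG against WT 44.1%, against 51.4% and 55.1%. Some member differences are therefore also given relative to the median gene. The 3 comparisons share groups, so their results are not independent of each other.

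Of the 9 members, 5 were lower with DM-aKG than with control treatment, Phgdh, Psat1, Psph, Shmt2 and Pycr1, beside 27.6% of all genes tested. Prodh alone was higher, beside 5.91% of all genes. In control Apc Min against WT samples 3 members were higher, Phgdh, Psph and Pycr1, beside 43.2% of all genes, and 1 was lower, Prodh, beside 15.7%. DM-aKG Apc Min samples differed from WT in 2 members, Shmt2 and Mthfd2, both lower, beside 17.3% of all genes. No member was called higher than WT, beside 21.9% of all genes, and the same limma fit gave none higher at an unadjusted p below 0.05. Of the calls, those of Phgdh and Pycr1 in the first 2 comparisons held under each of the 32 alternative settings tried.

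**Figure D1:**
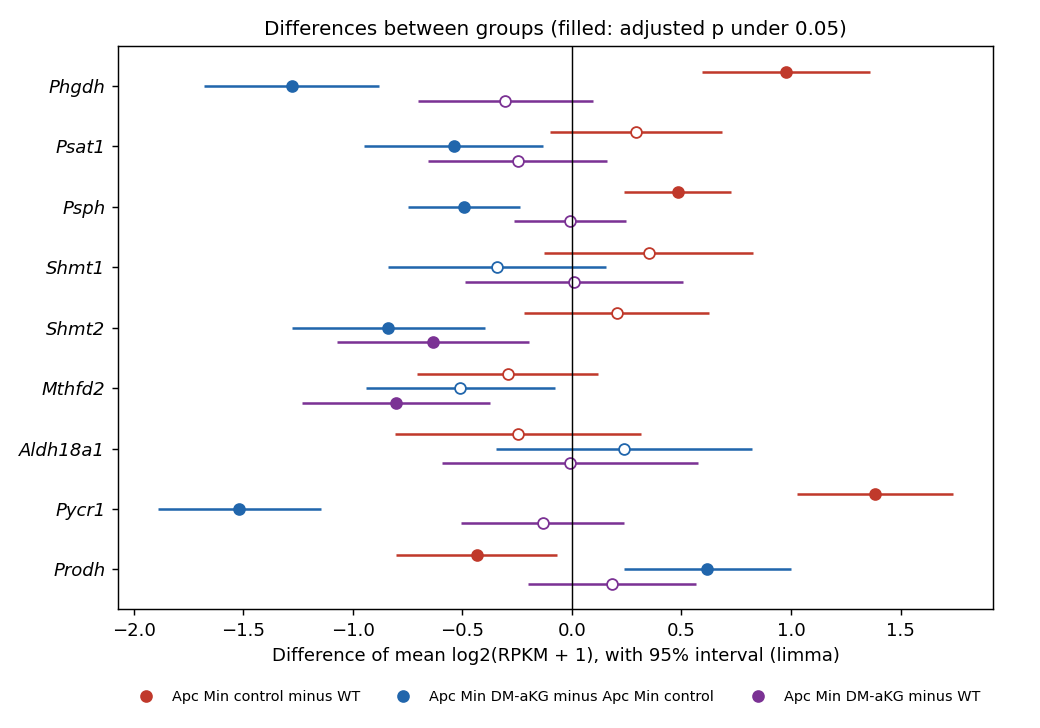
Differences between groups in mean log2(RPKM + 1) of the 9 members, with 95% confidence intervals from limma, coloured by comparison; filled points passed an adjusted p of 0.05. Pycr1 and Phgdh lie farthest from 0, at -1.52 and -1.28 for DM-aKG against control, and most intervals for DM-aKG against WT include 0.

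Phgdh, the entry enzyme of serine synthesis, was high in control Apc Min samples. It ran from 4.13 to 10.3 RPKM in the 7 control libraries (median 7.02), from 1.36 to 3.42 in the 6 DM-aKG libraries (median 2.38) and from 2.24 to 5.03 in the 7 WT libraries (median 2.82). Every control library was above every DM-aKG library, as held for 8.19% of all genes tested, whereas WT overlapped with both groups. Means were 7.25 ± 2.09 (SD, n = 7) in control and 2.38 ± 0.803 (n = 6) in DM-aKG samples, a 3.04-fold ratio. On the log2 scale Phgdh fell by 1.28 (SE 0.19, limma adjusted p = 3.88e-05), which is -1.14 relative to the median gene. Control was above WT by 0.98 (SE 0.18, limma adjusted p = 0.000156), which is 0.78 relative to the median gene. DM-aKG and WT differed by -0.30 with a 95% interval of -0.70 to 0.10, which did not pass the test.

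Psat1, the transaminase of the second step, was lower with DM-aKG, a call that depended on the setting and on single libraries. Its level was 2.99 to 8.61 RPKM in control libraries (median 5.67), 1.76 to 4.0 with DM-aKG (median 3.58) and 2.58 to 5.71 in WT (median 3.85). The groups overlapped, since the lowest control libraries lay within the DM-aKG range. Psat1 fell by 0.54 with DM-aKG (SE 0.20, limma adjusted p = 0.0395, -0.40 relative to the median gene). This call was lost with either scaling (adjusted p = 0.142 with quantile normalization and 0.114 with median-of-ratios scaling). It was also lost without control replicate 2, 4, 6 or 7 (adjusted p = 0.0776, 0.0676, 0.0869 and 0.0671) and without DM-aKG replicate 1, 3 or 5 (0.0734, 0.0592 and 0.112).

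Psph, which completes serine synthesis, had a narrow range. Control libraries were at 2.79 to 5.27 RPKM (median 3.79), DM-aKG libraries at 1.70 to 3.26 (median 2.58) and WT libraries at 2.13 to 3.28 (median 2.41). The control group sat above the others but overlapped with both. Psph fell by 0.49 with DM-aKG (SE 0.12, limma adjusted p = 0.00422) and was 0.48 higher in control than in WT (SE 0.12, adjusted p = 0.00156). Relative to the median gene these differences were -0.35 and 0.28. Quantile normalization ended both calls (-0.29, adjusted p = 0.103, and 0.19, adjusted p = 0.204). DM-aKG and WT differed by -0.01, with a 95% interval of -0.26 to 0.25.

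The serine enzymes were also compared with each other within libraries. Phgdh per unit of Psat1, both per length, was 0.99 to 2.20 in control libraries (median 1.29), above 0.564 to 0.874 in DM-aKG libraries (median 0.775) without overlap. Phgdh alone also did not overlap between them. WT libraries at 0.589 to 1.03 (median 0.779) overlapped with both. Relative to Psph, Phgdh had medians of 2.36 in control, 0.933 in DM-aKG and 1.11 in WT libraries. Across the 20 libraries Phgdh and Psat1 had a Pearson correlation of 0.78 on the log2 scale, and 0.76 after group means were removed. Such correlations are descriptions of libraries that share a normalization and a mix of cells.

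**Figure D2:**
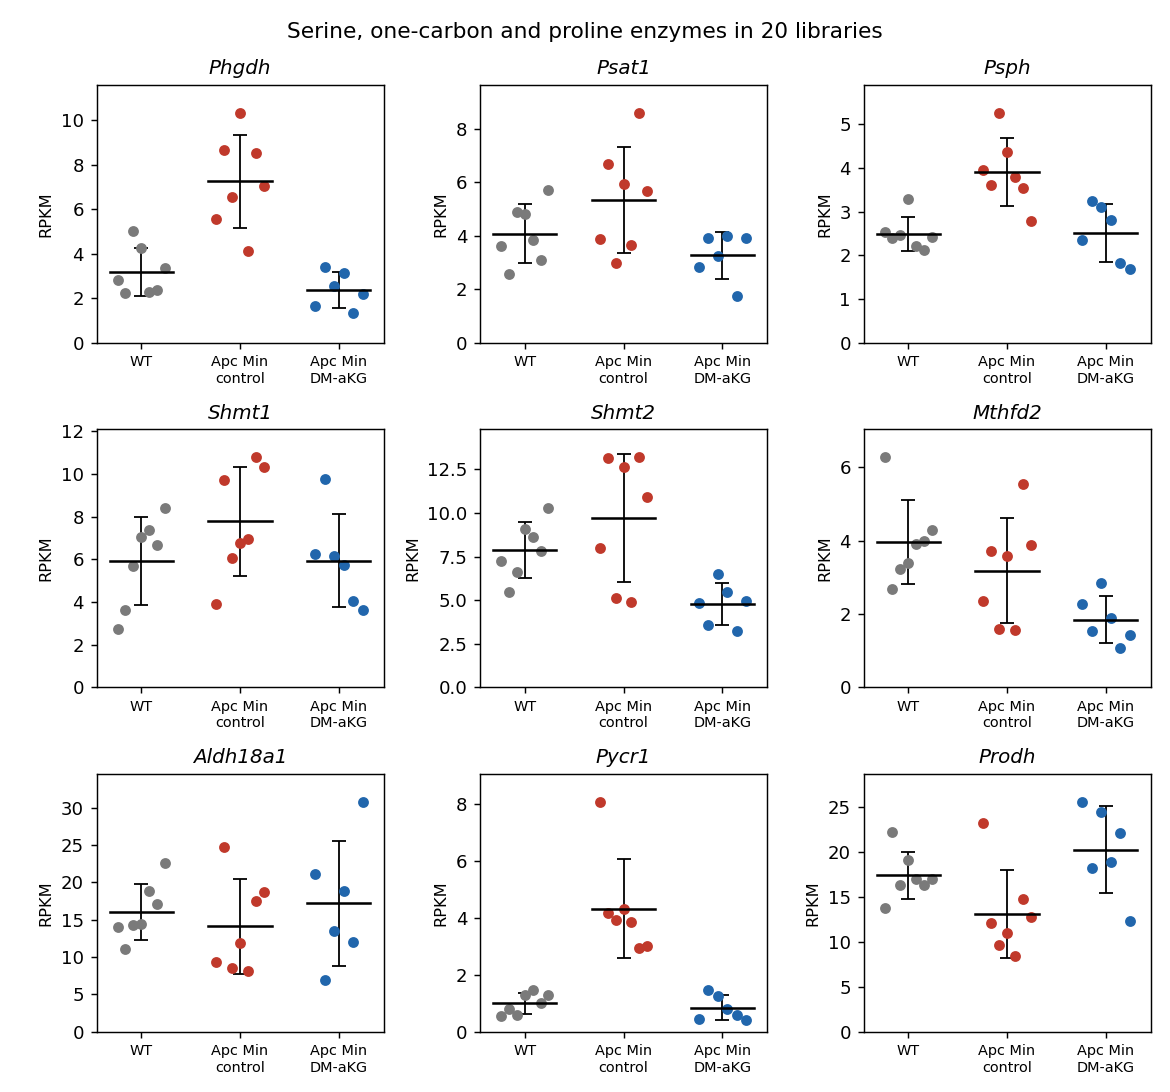
RPKM of each member in every library (points) by group, with the group mean and SD; each gene has its own axis, which starts at 0. Control and DM-aKG points do not overlap for Phgdh and Pycr1, and overlap for the other 7 members; 8.19% of all genes tested were lower with DM-aKG without overlap.

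Shmt2, the mitochondrial hydroxymethyltransferase, was lower with DM-aKG than in either other group. It was at 4.90 to 13.2 RPKM in control libraries (median 10.9), 3.25 to 6.51 with DM-aKG (median 4.88) and 5.49 to 10.3 in WT (median 7.80). The control libraries spread widely: replicates 2, 4, 6 and 7 lay above every DM-aKG and every WT library and replicates 3 and 5 within the DM-aKG range. Shmt2 fell by 0.84 against control (SE 0.21, limma adjusted p = 0.00459, -0.70 relative to the median gene) and by 0.63 against WT (SE 0.21, adjusted p = 0.0229). The first call was lost only when replicates 1 to 4 or 5 to 7 were fitted alone, and the second also without DM-aKG replicate 2 or 5 (adjusted p = 0.0542 and 0.0628). Control and WT differed by 0.20, which did not pass the test (adjusted p = 0.399), changed sign under both scalings (-0.02 and -0.01) and passed with array weights (0.38, adjusted p = 0.0482).

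Mthfd2, the folate dehydrogenase downstream of Shmt2, had its highest median in WT libraries and was lower with DM-aKG than in WT. WT libraries were at 2.67 to 6.27 RPKM (median 3.90), control libraries at 1.56 to 5.54 (median 3.59) and DM-aKG libraries at 1.07 to 2.83 (median 1.72). All 3 groups overlapped. Mthfd2 fell by 0.80 in DM-aKG samples against WT (SE 0.21, limma adjusted p = 0.00505). Against control the difference was -0.51 (SE 0.21, adjusted p = 0.0624), which did not pass the test, but did so without control replicate 3 or 5 or DM-aKG replicate 3 (adjusted p = 0.0262, 0.0236 and 0.0389). Control against WT gave -0.29, which did not pass, and -0.55 with quantile normalization, which did (adjusted p = 0.0175).

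Shmt1, the cytosolic counterpart of Shmt2, did not pass the test in any comparison. Its levels were 3.90 to 10.8 RPKM in control (median 6.94), 3.64 to 9.77 with DM-aKG (median 5.93) and 2.71 to 8.4 in WT libraries (median 6.65). The ranges overlapped almost fully. DM-aKG against control gave -0.34 (SE 0.24, limma adjusted p = 0.284). Within replicates 5 to 7 the difference was -1.07 (adjusted p = 0.00755) and within replicates 1 to 4 it was 0.09. The test of the difference between these sets gave -1.17 (SE 0.40, unadjusted p = 0.00964, adjusted p = 0.365) and did not pass. The ratio of Shmt2 to Shmt1 had medians of 1.22 in WT, 1.22 in control and 0.875 in DM-aKG libraries, with overlapping ranges.

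Pycr1, which makes proline in mitochondria, showed the largest change of the 9 members. It was at 2.93 to 8.08 RPKM in control libraries (median 3.93), 0.42 to 1.48 with DM-aKG (median 0.699) and 0.559 to 1.46 in WT (median 1.01). The control libraries stood above all others with no overlap (20.4% of all genes tested were likewise higher in control than in WT without overlap, and 8.19% likewise lower with DM-aKG than in control), while the DM-aKG and WT ranges overlapped. Means were 4.33 ± 1.74 (SD, n = 7) in control, 0.836 ± 0.439 (n = 6) in DM-aKG and 0.997 ± 0.361 (n = 7) in WT libraries. The control mean was 5.18-fold that of DM-aKG and 4.34-fold that of WT. On the log2 scale Pycr1 fell by 1.52 with DM-aKG (SE 0.18, limma adjusted p = 2.2e-06, -1.38 relative to the median gene) and was 1.38 higher in control than in WT (SE 0.17, adjusted p = 1.36e-06). Replicates 1 to 4 alone gave -1.59 for DM-aKG against control and replicates 5 to 7 gave -1.50. DM-aKG against WT gave -0.13 with a 95% interval of -0.50 to 0.24, which did not pass the test. At the WT level of Pycr1 this scale leaves no room for a fall of the size seen against control.

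Aldh18a1, the first committed enzyme of proline synthesis, was expressed at a higher level per length than Pycr1 and did not pass the test in any comparison. Libraries were at 8.16 to 24.8 RPKM in control (median 11.9), 6.98 to 30.8 with DM-aKG (median 16.2) and 11.1 to 22.6 in WT (median 14.4). All ranges overlapped and the spread within the Apc Min groups was wide, with a coefficient of variation of 44.9% in control and 48.5% in DM-aKG libraries. DM-aKG against control gave 0.24 with a SE of 0.28 (limma adjusted p = 0.542), and control against WT -0.25 (adjusted p = 0.449). The ratio of Aldh18a1 to Pycr1 was 1.16 to 6.20 in control (median 2.75), 4.73 to 73.3 in DM-aKG (median 21.9) and 11.2 to 25.2 in WT libraries (median 16.8).

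Prodh, the proline oxidase, moved in the direction opposite to Pycr1. It was at 8.41 to 23.3 RPKM in control libraries (median 12.1), 12.3 to 25.6 with DM-aKG (median 20.5) and 13.8 to 22.3 in WT (median 17.0). Most control libraries were low, replicate 1 at 23.3 was high, and all 3 groups overlapped, with or without that library. Prodh rose by 0.62 with DM-aKG (SE 0.18, limma adjusted p = 0.0135, 0.76 relative to the median gene). Within replicates 1 to 4 and 5 to 7 the values were 0.67 and 0.47 and did not pass (adjusted p = 0.0709 and 0.237). Control was lower than WT (-0.43, SE 0.18, adjusted p = 0.0407), a call that was lost in 11 of the 20 fits that each left out 1 library. These were the fits without WT replicates 2, 3, 4, 5, 6 or 7 (adjusted p = 0.0871, 0.0518, 0.0681, 0.055, 0.0506 and 0.0545) or control replicates 2, 3, 4, 5 or 7 (0.0604, 0.0868, 0.0699, 0.0977 and 0.0553).

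The ratio of Prodh to Pycr1, breakdown over synthesis, separated the control libraries from all others. Pycr1 did so alone, whereas Prodh overlapped between all groups. The share of gene ratios that separate these libraries was not computed. The ratio of Prodh to Pycr1 was 2.18 to 5.03 in control libraries (median 2.88), 12.4 to 55.8 with DM-aKG (median 26.4) and 11.7 to 28.1 in WT (median 16.1). Control did not overlap with either group, and control replicate 1, the highest for both genes, had a ratio inside its group's range. Across all libraries the 2 genes had a correlation of -0.42, and of 0.44 once group means were removed.

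**Figure D3:**
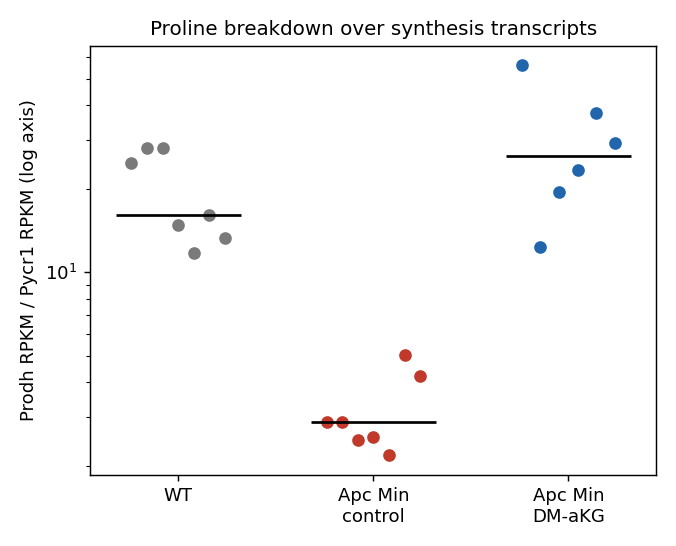
Ratio of Prodh RPKM to Pycr1 RPKM in each of the 20 libraries on a log axis, by group, with the group median as a bar. The 7 control libraries sit between 2.18 and 5.03, below all WT and all DM-aKG libraries. Pycr1 alone also separates them.

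The other enzymes of proline metabolism were read from a list of 20 genes tested around proline, glutamate and ornithine. With DM-aKG against control 5 were lower (25.0%, near the 27.6% of all genes), none was higher, and the list's median difference was 0.17, against -0.14 over all genes. Arg1, P4ha2, Got2 and Odc1 were among the lower genes. Under either scaling 4 genes of the list were called higher and 3 lower. The count was 3 without DM-aKG replicate 1 or 6, and 8, of which 3 were higher, without DM-aKG replicate 2. Arginase Arg1, which makes ornithine, had the largest change, at 0.289 ± 0.133 RPKM in WT, 27.7 ± 6.75 in control and 2.02 ± 1.79 in DM-aKG libraries (SD). It fell by 3.40 with DM-aKG (SE 0.26, limma adjusted p = 1.15e-08) and was 4.45 higher in control than in WT. Arg1 passed the filter on low values only through the control group, so its test was not independent of that filter. WT libraries were at 0.521 RPKM or below, and the lowest DM-aKG library was at 0.295. P4ha2, a subunit of the collagen prolyl hydroxylase that uses alpha-ketoglutarate, fell by 1.21 (adjusted p = 4.44e-07) and was 1.55 higher in control than in WT. In control against WT 7 of the 20 genes were higher and 10 lower, beside 43.2% higher and 15.7% lower over all genes. The list's median there was -0.23, against 0.20 over all genes.

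Proline is also made in the cytosol. The cytosolic reductase, listed as Pycrl, was at 15.7 ± 0.947 RPKM in WT, 8.57 ± 2.86 in control and 10.5 ± 3.10 in DM-aKG libraries. It was lower in control than in WT (-0.87, adjusted p = 0.000822), and DM-aKG against control gave 0.28 (limma adjusted p = 0.3). Aldh4a1, which follows Prodh in proline breakdown, was lower in control than in WT (-2.31, adjusted p = 4.35e-05), at 5.31 ± 3.12 against 29.2 ± 13.4 RPKM. DM-aKG samples, at 6.07 ± 3.37 RPKM, differed from control by 0.20 (adjusted p = 0.726). Oat, which links ornithine to the proline precursor, was lower in control than in WT (-0.83, adjusted p = 0.00554). Its DM-aKG against control value of 0.56 did not pass (adjusted p = 0.0885), but did so without control replicate 2 or 7 or DM-aKG replicate 2 (0.0336, 0.0434 and 0.0427).

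Among 16 tested genes that transport or use serine and glycine, 1 was higher with DM-aKG than with control, Sfxn1, a mitochondrial serine carrier, and 5 were lower (31.2%, near the share over all genes), Amt, Slc1a4, Sfxn3, Sdsl and Slc6a9. The list's median was -0.13, against -0.14 over all genes. With either scaling 1 gene of the list was higher and 3 were lower. Slc1a4, a plasma membrane carrier of serine and other neutral amino acids, was at 1.8 ± 0.671 RPKM in WT, 9.37 ± 0.759 in control and 2.94 ± 1.72 in DM-aKG libraries. It fell by 1.49 with DM-aKG (SE 0.19, limma adjusted p = 6.66e-06) and was 1.92 higher in control than in WT. Amt, the aminomethyltransferase of the glycine cleavage system, fell by 0.99 (adjusted p = 1.15e-06), and Sfxn3 by 0.73 (adjusted p = 6.99e-06). Amt was at 1.91 to 3.1 RPKM in control libraries, at most 0.925 with DM-aKG and at most 0.686 in WT. It thus passed the filter on low values only through the control group, and its test was not independent of that filter. The glycine decarboxylase Gldc, at means of 0.0479 to 0.181 RPKM in the 3 groups, was too low to be tested. In control against WT 4 genes of the list were higher (25.0%) and 6 lower (37.5%), beside 43.2% and 15.7% of all genes (median -0.06).

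Of 20 other folate genes tested, none was called higher with DM-aKG and 5 were lower (25.0%, near the share over all genes), among them Ggh, Mthfd1l, Mthfd2l and Atic, with a median of -0.24. With quantile normalization 1 folate gene was higher with DM-aKG and 2 were lower, and with median-of-ratios scaling 2 and 2. The count of folate calls depended on single libraries: it was 3 without control replicate 2, 6 or 7, and 8 without control replicate 1 or DM-aKG replicate 2. Ggh, which trims folate polyglutamates, fell by 2.39 (SE 0.23, limma adjusted p = 1.54e-07) from 33.8 ± 8.0 RPKM in control to 6.13 ± 3.62 with DM-aKG. WT libraries were at 3.47 ± 0.953, and control was 2.96 higher than WT. Mthfd1l, the mitochondrial formate-producing enzyme after Mthfd2, fell by 1.0 (adjusted p = 0.000212) and was 1.4 higher in control than in WT. The cytosolic enzyme Mthfd1 gave 0.04 (adjusted p = 0.923). In control against WT 12 of the 20 were higher and 2 lower, beside 43.2% higher and 15.7% lower over all genes. The list's median there was 0.36, against 0.20 over all genes. With quantile normalization 6 were higher and 3 lower, and with median-of-ratios scaling 9 and 3.

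Genes of glycolysis, both before and after 3-phosphoglycerate, were read next. Of 12 tested, 10 were lower with DM-aKG. The 10 were 83.3% of the list, beside 27.6% of all genes. Some of them, such as Pgam1 and Pkm, act after 3-phosphoglycerate and so do not lead into serine synthesis. None was higher, and the list's median was -0.72 against -0.14 over all genes. Hk1, a hexokinase, fell by 0.84 (limma adjusted p = 2.24e-05) and was 0.94 higher in control than in WT. Gapdh fell by 0.72 (adjusted p = 7.11e-05) from 68.2 ± 11.5 to 40.6 ± 3.54 RPKM, with WT at 41.7. In control against WT 9 of the 12 were higher (75.0%) and 1 lower (8.3%), beside 43.2% and 15.7% of all genes (median 0.70). With quantile normalization 9 of the 12 were lower with DM-aKG, and 7 with median-of-ratios scaling. Within replicates 5 to 7 alone 5 were lower and none higher, and Pgam1 was not called there (-0.54, adjusted p = 0.209).

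Regulators and known targets of Atf4, 19 genes tested besides the members, gave 5 lower and none higher with DM-aKG, with a median of -0.26 against -0.14 over all genes. The 5 are 26.3% of the list, near the 27.6% of all genes called lower. The lower genes were Asns, Slc7a5, Stc2, Atf3 and Eif2ak3. The full list held 23 genes, of which Chac1, Slc7a11, Fgf21 and Gdf15 did not pass the filter and were not tested. Chac1, Slc7a11 and Gdf15 had their highest means in control, and Fgf21 was at 0 in all libraries. Atf4 itself had means of 91.2, 95.8 and 77.9 RPKM in WT, control and DM-aKG libraries and did not pass the test with DM-aKG (-0.29, limma adjusted p = 0.0977), but did so with replicate number as a block (-0.31, adjusted p = 0.0431) and with replicate set as a factor (-0.31, adjusted p = 0.0459). Asns, asparagine synthetase, fell by 0.83 (adjusted p = 0.000664), and Slc7a5, a carrier of large neutral amino acids, by 0.96 (adjusted p = 0.00169). With either scaling 1 gene of the Atf4 list was higher with DM-aKG and 3 were lower. The count of Atf4 list calls was 3 without DM-aKG replicate 5 or 6, and 1 within replicates 1 to 4 alone. In those replicates Asns gave -0.49 (adjusted p = 0.0929) and Slc7a5 -0.59 (adjusted p = 0.13), and neither passed. Of 12 tested tRNA synthetases, several of them known Atf4 targets, 6 were lower, 50.0% of the list, and none higher (median -0.34). With either scaling 4 synthetases were lower and none higher. Gars fell by 0.71 (adjusted p = 5.47e-05) from 46.9 ± 4.58 to 28.6 ± 6.55 RPKM. In control against WT, beside 43.2% higher and 15.7% lower over all genes, 8 of the 19 were higher (42.1%) and 2 lower (10.5%). Of the synthetases 3 were higher (25.0%) and 1 lower (8.3%). These splits depended on the scaling: the Atf4 list gave 4 higher and 4 lower with quantile normalization and 4 and 5 with median-of-ratios scaling, and the synthetases 2 and 2, and 2 and 5.

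Some list genes named as lower with DM-aKG lost that call under both scalings, among them Sdsl (limma adjusted p = 0.131 with quantile normalization and 0.0694 with median-of-ratios scaling), Mthfd2l (0.169 and 0.0739), Atic (0.103 and 0.0789), Got2 (0.187 and 0.194) and Atf3 (0.0775 and 0.0805).

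**Figure D4:**
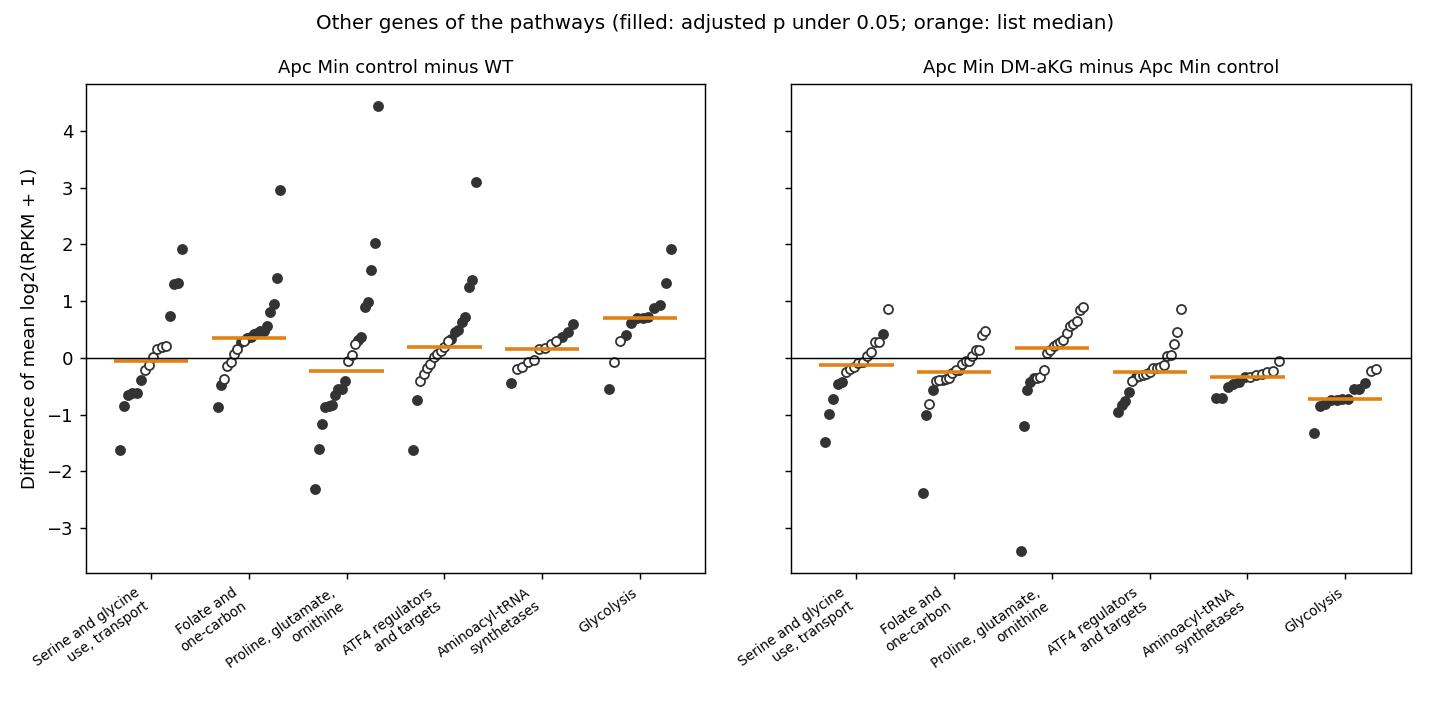
Differences in mean log2(RPKM + 1) of each tested gene (points) in 6 lists, for control against WT on the left and DM-aKG against control on the right, with list medians as orange bars; filled points passed an adjusted p of 0.05. On the right the glycolysis list has the lowest median, at -0.72, and the proline list the highest, at 0.17.

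Markers of proliferation and of other cell types moved with several members. The summed level of 15 proliferation genes was 115.3 to 225.2 RPKM in control (median 188.6), 75.75 to 132.9 with DM-aKG (median 110.3) and 100 to 196.2 in WT libraries (median 153.9). Control replicates 2, 4, 6 and 7, at 188.6 and above, were the libraries in which Shmt2 was highest. After group means were removed, the correlation with this sum over 20 libraries was 0.91 for Shmt1, 0.75 for Psat1, 0.71 for Shmt2, 0.58 for Phgdh and 0.53 for Mthfd2, but 0.10 for Pycr1. The part of proliferation in these members' differences was not tested. In control against WT the proliferation genes were mixed: 1 of the 15 was higher (6.7%), Rrm2, and 1 lower (6.7%), Tk1. Over all genes 43.2% were higher and 15.7% lower, and the list's median was -0.07. With DM-aKG against control 6 of the 15 were lower (40.0%, beside 27.6% of all genes) and none higher, with a median of -0.63.

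**Figure D5:**
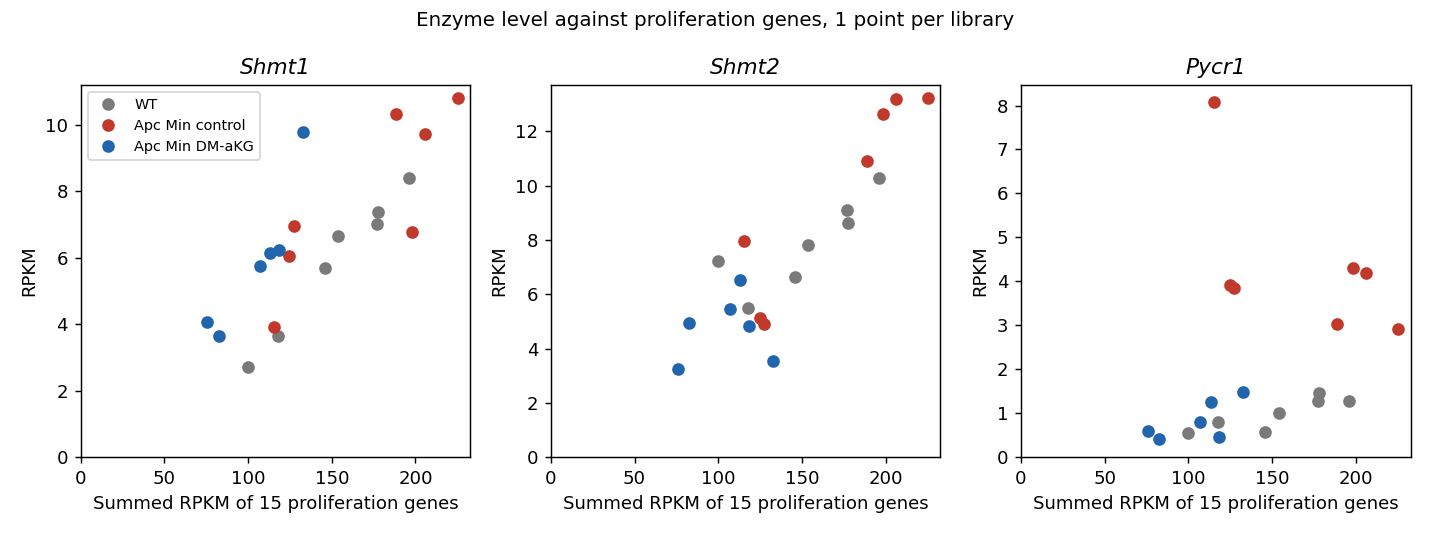
Shmt1, Shmt2 and Pycr1 in RPKM against the summed RPKM of 15 proliferation genes, 1 point per library, coloured by group. Shmt1 and Shmt2 are higher in libraries with a higher sum, whereas Pycr1 is at 2.93 RPKM or more in all 7 control libraries, whose sums run from 115.3 to 225.2.

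The summed level of 13 fibroblast and collagen genes, all of them detected in all 3 groups, was 383.3 to 535.2 RPKM in control (median 450.9), 222.0 to 341.0 with DM-aKG and 151.5 to 269.3 in WT libraries, and control did not overlap with the others. Its correlation with Pycr1 was 0.81 over all libraries and 0.20 with group means removed, and with Phgdh 0.73 and 0.23. The summed level of 10 smooth muscle genes was 426.4 to 1449 RPKM in control, 975.0 to 1703 with DM-aKG and 1101 to 1884 in WT libraries. It had a correlation of 0.79 with Prodh, and 0.67 with group means removed. Sums of 10 epithelial genes were 3890 to 5702 RPKM in control, 2930 to 4003 with DM-aKG and 4820 to 6580 in WT libraries. The genes were mixed: in control against WT 4 of the 10 were lower and 2 higher, Krt18 and Elf3. Over all genes 15.7% were lower and 43.2% higher. With DM-aKG against control 6 of the 10 were lower and 1 higher, Vil1, beside 27.6% lower and 5.91% higher over all genes. Leukocyte genes, 12 in all, summed to 76.97 to 112.3 RPKM in WT, 31.1 to 68.6 in control and 20.41 to 70.96 in DM-aKG libraries, and 6 plasma cell genes to 295.7 to 825.6, 183.0 to 278.8 and 180.4 to 317.5. These lists were mixed too. In control against WT 9 of 11 tested leukocyte genes were lower (81.8%) and 2 higher, S100a8 and S100a9. Of the plasma cell genes 4 were lower (66.7%) and 1 higher, Sdc1. Over all genes 15.7% were lower and 43.2% higher. The sums of 12 enterocyte genes overlapped between all groups, with medians of 10420 RPKM in WT, 10260 in control and 14540 in DM-aKG libraries. Gene by gene, 5 were higher with DM-aKG than with control (41.7%, beside 5.91% of all genes), Slc26a3, Mgam, Apob, Slc5a1 and Sis. None was lower, beside 27.6% of all genes. In control against WT 4 enterocyte genes were lower (33.3%), Slc5a1, Mgam, Lct and Fabp2, and 1 higher (8.3%), Apoa4. No marker of these lists was at 0 in all libraries of a group, and their part in the members' differences was not tested.

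Replicates 1 to 4 and 5 to 7 stood apart in 1 technical measure. Rn45s, the ribosomal RNA precursor gene, lay between 3836 and 6558 RPKM in the first set (12 libraries) and between 1078 and 3621 in the second (8 libraries). Within replicates 1 to 4 Phgdh differed between DM-aKG and control by -1.25 (limma adjusted p = 0.00369) and within replicates 5 to 7 by -1.41 (adjusted p = 0.0111). Psph gave -0.45 (adjusted p = 0.0283) and -0.66 (adjusted p = 0.0124), and Shmt2 -0.76 (adjusted p = 0.0583) and -0.99 (adjusted p = 0.0751). For Psat1 the values were -0.35 (adjusted p = 0.311) and -0.86 (adjusted p = 0.122). The limma test of a difference between sets called 0 members and 26 of all genes. At an unadjusted p below 0.05 it gave 1 member, Shmt1, and 11.7% of all genes.

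Members were also compared with each other across libraries. With group means removed, over 20 libraries, Shmt2 had a correlation of 0.81 with Mthfd2, 0.78 with Psat1 and 0.69 with Aldh18a1. Phgdh and Pycr1, which both separated control from DM-aKG libraries, had 0.77 before and 0.03 after removing group means. The genes whose level followed Phgdh most closely over the 20 libraries were Ywhag (Pearson r = 0.957), Tspan14 (0.939), Ppp1r8 (0.930), Rnaseh2a (0.926) and Erh (0.924), out of 8730 compared. For Pycr1 they were Tesc (0.944), Htra1 (0.939), Basp1 (0.925), Brd7 (0.921) and Gstm5 (0.921), out of 8731.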

How the data were processed

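The authors deposited 1 table of RPKM values for 24795 genes in 20 libraries of total RNA. The unit was read from the values and is not named in the sources used here, nor are the gene models and lengths behind it. CASAVA 1.8, HISAT2 2.0.4, Partek and the mm10 build are named, per the submitters' processing notes, with no role or order. Depth was estimated from the spacing of low values. The search was confined to a range of depths set beforehand, because whole multiples of a depth also give whole reads. In each library 52.3 to 58.9% of the low values lay within 0.1 of a whole read, against 20% for evenly spread values, too few to recover counts.

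Groups and replicate numbers came from the labels. limma 3.58.1 with statmod 1.5.0 in R 4.3.3 was fitted to log2(RPKM + 1) of the 12433 genes at 1 RPKM or more in at least 6 libraries, with all 20 libraries in 1 fit, an intensity trend and robust variances. P-values were adjusted by Benjamini-Hochberg over all genes tested. Other genes of the lists were tested in the same fit, which was checked on simulated data. Tables were handled in Python 3.11.15 with pandas 2.3.3. The members and gene lists were chosen with earlier results of these data known. All members are named. Of each list, up to 4 genes with the smallest p in DM-aKG against control were eligible for values, with Pycrl, Aldh4a1, Oat, Aldh1l2, Mthfd1, Mthfd1l, Gldc, Atf4 and Asns whatever theirs; the others in counts of 5 or fewer are named after their values were seen. Closest genes were those with the highest Pearson correlation among genes with a mean log2 value of at least 2. Alternatives were the filter, pseudocount, scaling, array weights, replicate number as a block, replicate sets, and leaving out each library. No 2 libraries held identical values. Gene names altered to dates by a spreadsheet (26) and 2 repeated names touched no member. Some genes of the lists are counted but not reported here by name.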

Additional observations from a re-analysis of the deposited data

Results flagged for a closer look

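In 3 groups 1 library lay apart from the others by more than Dixon's test allows at the 95% level, which sets the gap to the nearest library against the range of the group. Chance flags about 1 in 20 groups, and 9 members were tested in 3 groups each. Prodh was at 23.27 RPKM in control replicate 1, against 8.413 to 14.73 in the other 6 control libraries. Pycr1 was at 8.085 RPKM in the same library, against 2.928 to 4.307. Psph was at 3.285 RPKM in WT replicate 4, against 2.128 to 2.547 in the other 6 WT libraries. Without control replicate 1, DM-aKG against control gave -1.38 for Pycr1 (limma adjusted p = 1.06e-06) and 0.76 for Prodh (adjusted p = 0.000869) on the log2 scale. Without WT replicate 4, Psph was 0.53 higher in control than in WT (adjusted p = 0.000838).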

How the results depend on the processing

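Each member difference was recomputed under 32 alternatives, 864 values in all, of which 781 kept their direction and their side of the threshold, 41 lost the call, 10 gained one and 32 changed sign, none of the last from a called value. Within replicates 1 to 4 alone, 3 members (6 with all replicates) and 2225 genes in all (4167) were called for DM-aKG against control, and 0 members (2) for DM-aKG against WT. Within replicates 5 to 7 alone the latter gave 0 members and 547 genes (4873). Leaving out 1 library at a time gave 5 to 7 members for DM-aKG against control, 3 to 4 for control against WT and 1 to 2 for DM-aKG against WT, with 3441 to 4574, 6800 to 7477 and 3802 to 5154 genes in all. With no filter on low values the interaction of treatment with replicate set called 14 genes (26). These settings test fewer samples or more genes; otherwise the cause was not tested.

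Replicate numbers are shared between groups, but same-numbered samples did not deviate together: of 19 pairs, correlations ran from -0.457 to 0.604, 8 were over 0.1 and 2 samples correlated best with their own number. With replicate number as a block 5 members were called for DM-aKG against control, 3 for control against WT and 2 for DM-aKG against WT, with 4361, 7759 and 5486 genes in all. Under the block Psat1 (-0.49, limma adjusted p = 0.0572) and Prodh for control against WT (-0.43, adjusted p = 0.0599) were not called, and Atf4 for DM-aKG against control was (-0.31, adjusted p = 0.0431).

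Changes of sign concerned differences that had not passed the test, the largest being that of Shmt1 for DM-aKG against control (-0.341). For DM-aKG against WT, Aldh18a1 gave 0.074 with the replicate block, 0.060 with array weights, 0.027 with replicate set as a factor, 0.059 within replicates 1 to 4, 0.002 within 5 to 7 and -0.195 to 0.204 leaving out 1 library. In the same comparison Psph gave 0.091 with array weights, 0.081 within replicates 1 to 4 and -0.068 to 0.064 leaving out 1 library, Pycr1 gave 0.136 within replicates 1 to 4, and Prodh gave -0.019 within 5 to 7. Shmt1 there gave -0.068 with quantile normalization, -0.053 with median-of-ratios scaling, -0.108 with array weights, -0.803 within replicates 5 to 7 (adjusted p = 0.0538), against 0.504 within replicates 1 to 4, and -0.129 to 0.114 leaving out 1 library. For DM-aKG against control Shmt1 gave 0.094 within replicates 1 to 4, and Mthfd1 -0.075 with array weights, -0.374 within replicates 5 to 7 and -0.103 to 0.151 leaving out 1 library. For control against WT Aldh18a1 gave 0.001 with array weights, and Shmt2 -0.018 with quantile normalization and -0.015 with median-of-ratios scaling.

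Array weights called 12 folate genes (1 higher, 11 lower), 9 proline genes and 10 tRNA synthetases for DM-aKG against control, and added Shmt1 (-0.49, adjusted p = 0.0491) and Mthfd2 (adjusted p = 0.016) to the members called there, and Psat1 (0.47, adjusted p = 0.0193) and Shmt2 (0.38, adjusted p = 0.0482) for control against WT. Values are RPKM without counts, so the depth behind a single value is known only as an estimate. Pycr1, below 1 RPKM in some libraries, had the lowest values of the members.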
